A study of Mus musculus with 32 samples.

Results

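ISG15 is a small ubiquitin-like protein that cells make in response to type I interferon and attach to other proteins. The genes followed here are its modifier gene Isg15 and the enzymes that attach and remove it, namely the E1 Uba7, the E2 Ube2l6, the E3 Herc6 and the protease Usp18. These 5 genes of the 23035 in the footprint tables were chosen by symbol for their role in this pathway. NSCs (neural stem cells) from the vSVZ (ventricular-subventricular zone) of male C57BL/6 mice aged 8 to 12 weeks were grown in culture and given IFN-β or vehicle (buffer with albumin) for 2 h or 14 h. All cultures received cycloheximide for a few minutes before lysis, which holds ribosomes on the mRNA. Ribo-Seq then counted the mRNA fragments protected by ribosomes (footprints) in the coding sequence (CDS) of each gene, with total RNA of the same lysates counted over whole genes. Each of the 4 groups held 4 cultures, with the replicate numbers 2, 3, 5 and 6 for the short exposure and 1 to 4 for the long one, which gave 16 footprint and 16 total RNA libraries.

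ISG15 conjugation runs as a cascade parallel to that of ubiquitin. The E1 activates the modifier, the E2 carries it, the E3 passes it to a lysine of the target protein, and USP18 cuts it off again. USP18 has a second role that does not need its protease activity, since it binds the interferon receptor subunit IFNAR2 and damps signalling from it, and in mouse cells HERC6 takes the place that HERC5 has in human cells.

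All members lie in genes that are annotated as protein-coding (GENCODE M21, GRCm38/mm10). Isg15 (ENSMUSG00000035692) is at chr4:156199424-156200818 on the minus strand, with a CDS of 483 bases in 2 exons. Uba7 (ENSMUSG00000032596) is at chr9:107975505-107984060 on the plus strand, with a CDS of 2983 bases, of which 77 are shared with Gm20661 on the same strand. Gm20661 had 0 counts in every library. Ube2l6 (ENSMUSG00000027078) is at chr2:84798828-84810335 on the plus strand, with a CDS of 552 bases. Herc6 (ENSMUSG00000029798) is at chr6:57581000-57664632 and Usp18 (ENSMUSG00000030107) at chr6:121245906-121270917, both on the plus strand, with CDS of 3032 and 1105 bases. The processed transcript Gm45193 shares 1269 exon bases with Herc6 on the same strand but none of its CDS. Total RNA reads in these shared bases could not be told apart between the genes. The pseudogene Gm19244 lies within the Herc6 span on the opposite strand and shares no exon bases with it. The lincRNA Gm44148 shares 124 exon bases with Usp18 on the opposite strand but none of its CDS. The strand setting of the counting was not given in the sources used here, so reads of either strand in those 124 bases could not be told apart in total RNA.

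The promoter windows of 4 members were found in the RefSeq table of GRCm38.p6 (250 bases before to 50 after the annotated start), and Usp18 was not matched. Only the first window listed for each of these genes was searched. The interferon-stimulated response element was searched as GAAANNGAAA on both strands, and the overlapping pattern AAANNGAAAC as well. Isg15 held 3 copies of the first pattern, beginning 78, 72 and 66 bases before the start, and 2 of the second. It is shown because the member with the highest footprint level under IFN-β carries these copies in a single run, which is written in capitals within the 250 bases upstream (chr4:156200819-156201068, minus strand).
Isg15: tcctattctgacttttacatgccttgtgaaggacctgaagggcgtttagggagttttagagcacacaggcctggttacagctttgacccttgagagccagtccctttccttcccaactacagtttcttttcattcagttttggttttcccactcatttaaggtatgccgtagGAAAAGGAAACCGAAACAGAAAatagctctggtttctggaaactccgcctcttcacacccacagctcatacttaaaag
Of 32851 promoter windows in that table, 3.44% held the first pattern and 0.0152% (5 windows) held 3 or more copies. Uba7 had no copy of the first pattern and 1 of the second, which 2.24% of windows held, on the strand opposite to the gene. The 30 bases around it (chr9:107975529-107975558, plus strand, the pattern in capitals) are shown because Uba7 was the member whose footprints were near absent at 2 h. They lie inside the Uba7 span given above, because the RefSeq start of this window is downstream of the GENCODE start.
Uba7: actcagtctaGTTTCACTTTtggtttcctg
Neither pattern was found in the windows of Ube2l6 and Herc6. A match is a description of the letters, and no match says only that they are not in this window.

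The footprint libraries held 2956297 to 10505108 counts, and the NSC markers (Sox2, Nes, Vim and others, 10 in all) summed to between 11400 and 18400 CPM (library-scaled counts, with TMM over the 16 libraries). Of these markers, Gfap was at 3 or fewer counts in every vehicle library at 14 h. The microglial markers Aif1, Cx3cr1, Tmem119, Ptprc and C1qa were at 3 or fewer counts in every footprint library, as were the endothelial markers Cldn5, Pecam1 and Cdh5. The endothelial marker Kdr was at 6.74 to 23.9 CPM with IFN-β at 2 h (vehicle 3.21 to 9.23) and 5.37 to 6.22 at 14 h (vehicle 4.19 to 5.57). Tek was at 0.204 to 0.829 CPM with IFN-β at 2 h (vehicle 0.551 to 2.13) and 4.36 to 6.30 at 14 h (vehicle 2.87 to 3.39). At 14 h the 9 microglial markers summed to 41.9 to 46.5 CPM in treated libraries (vehicle 38.0 to 42.6) and the 5 endothelial markers to 9.73 to 12.6 CPM (vehicle 7.78 to 8.79). At 2 h these sums were 21.0 to 41.1 (vehicle 16.1 to 35.2) for microglia and 7.15 to 24.7 (vehicle 3.91 to 9.92) for endothelial cells. Within the microglial sum at 14 h, P2ry12 was higher with IFN-β (20.4 to 26.0 CPM, vehicle 5.57 to 8.28) and Itgam lower (17.5 to 20.7 CPM, vehicle 29.4 to 35.6). The sum of the 3 ependymal markers was higher with IFN-β at 14 h (42.5 to 58.1 CPM against 17.2 to 23.7), nearly all of it from Foxj1 (41.8 to 56.7 against 16.7 to 23.5). Ccdc153 held 4 to 6 counts against 0 to 5 there, and Tmem212 held 0 in every footprint library. At 2 h the ependymal sum was 16.4 to 35.5 CPM (vehicle 23.6 to 43.0). The part of these markers in the results below was not tested. In bulk cultures, fewer cells that use a gene and less RNA per cell cannot be told apart.

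Footprints on all 5 genes were higher with IFN-β than with vehicle at both times, and in no case did the libraries of the treatments overlap. The modifier Isg15 and the protease Usp18 had risen about 100-fold by 2 h. Ube2l6 and Herc6 had risen about 4-fold by then, and Uba7, the enzyme that starts the cascade, was still at 9 counts or fewer per library. At 14 h the fitted increases ran from 25.4-fold for Herc6 to 2570-fold for Isg15. Of all 12104 genes tested at 2 h, 5.25% were higher with IFN-β (15.9% with the replicate number as a block), and of 12113 at 14 h, 26.2% were. The 4 members that could be tested at 2 h, and all 5 at 14 h, were called higher. At 14 h Isg15, Uba7 and Usp18 passed the filter on low counts only through the treated libraries. None of their vehicle libraries reached 10 counts. Their calls and adjusted p at 14 h, and their part in the median below, are therefore descriptions. The median log2 fold change of the members tested was 4.36 at 2 h and 8.76 at 14 h, against -0.02 and 0.00 over all genes tested.

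Isg15, the modifier, had 26, 23, 17 and 19 footprint counts in the vehicle libraries 2, 3, 5 and 6 at 2 h, and 2552, 1996, 2203 and 1399 in the IFN-β libraries of the same numbers. At 14 h it had 4, 4, 6 and 3 counts with vehicle (replicates 1 to 4) and 3541, 9163, 9442 and 13110 with IFN-β. Every treated library was therefore far above every vehicle library, and the low count of IFN-β replicate 1 at 14 h went with that library's total of 2956297 counts, the lowest of all. Scaled for library size, the level was 2.71 ± 0.399 CPM with vehicle and 317 ± 72.0 with IFN-β at 2 h (SD, n = 4), and 0.536 ± 0.229 and 1330 ± 101 at 14 h. edgeR gave a log2 fold change of 6.87 (SE 0.22, adjusted p = 2.5e-07) at 2 h and of 11.33 (SE 0.14, adjusted p = 6.41e-15) at 14 h. By size of the log2 fold change Isg15 stood 18th of 12104 genes at 2 h and 13th of 12113 at 14 h.

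Uba7, the E1 that activates ISG15, had 1, 1, 1 and 0 counts with vehicle and 9, 5, 5 and 7 with IFN-β at 2 h, in the order of replicates above. These counts did not reach the minimum of 10 in 4 libraries, so the gene was not tested at 2 h. The summed counts of 26 and 3 correspond to a ratio of 10.5 with a 95% exact counting interval from 3.20 to 54.0, which covers counting error only. At 14 h Uba7 had 2, 1, 3 and 1 counts with vehicle and 237, 670, 723 and 920 with IFN-β, or 0.231 ± 0.155 and 95.3 ± 11.5 CPM (SD, n = 4). No treated library at 14 h was within reach of the vehicle libraries, and the log2 fold change was 8.76 (SE 0.20, edgeR adjusted p = 7.55e-13). Without the filter on low counts, edgeR called Uba7 at 2 h as well, with a log2 fold change of 3.17 (SE 0.57, adjusted p = 0.00655).

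Ube2l6, the E2 that carries ISG15, was the member with the highest level per base of CDS in vehicle cultures. At 2 h it had 90, 51, 59 and 59 counts with vehicle and 273, 164, 202 and 165 with IFN-β. At 14 h it had 28, 78, 64 and 85 with vehicle and 857, 2284, 2145 and 3484 with IFN-β. The vehicle level was 8.16 ± 1.03 CPM at 2 h and 7.20 ± 1.46 at 14 h, whereas the IFN-β level was 30.9 ± 3.62 and 326 ± 35.7 CPM (SD, n = 4). Its log2 fold change was 1.92 (SE 0.13, edgeR adjusted p = 1.92e-05) at 2 h and 5.46 (SE 0.12, edgeR adjusted p = 3.85e-13) at 14 h.

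Herc6, the E3 that transfers ISG15 to targets in mouse cells, had the longest CDS of the members and the smallest response at 14 h. Its counts at 2 h were 157, 105, 104 and 104 with vehicle and 400, 407, 436 and 294 with IFN-β. At 14 h they were 56, 114, 86 and 132 with vehicle and 731, 2022, 2114 and 2815 with IFN-β. In CPM the gene went from 14.9 ± 1.27 to 60.8 ± 15.8 at 2 h and from 11.1 ± 1.07 to 287 ± 29.7 at 14 h (SD, n = 4). The log2 fold changes were 2.03 (SE 0.18, edgeR adjusted p = 9.91e-05) and 4.67 (SE 0.10, edgeR adjusted p = 2.84e-13).

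Usp18, the protease that removes ISG15, responded like the modifier itself. It had 12, 15, 20 and 14 counts with vehicle and 1333, 1418, 1576 and 837 with IFN-β at 2 h, and 0, 1, 5 and 2 against 1629, 4343, 4576 and 6615 at 14 h. No vehicle library at 14 h held more than 5 counts of it, whereas all treated libraries held over 1000. The level was 1.99 ± 0.565 and 204 ± 66.1 CPM at 2 h, and 0.227 ± 0.272 and 639 ± 71.4 CPM at 14 h (SD, n = 4). The log2 fold change was 6.69 (SE 0.31, edgeR adjusted p = 2e-06) at 2 h and 11.31 (SE 0.21, edgeR adjusted p = 7.21e-14) at 14 h, the latter resting on 8 vehicle counts over the 4 libraries. Without vehicle replicate 3, which held 5 of them, it was 12.25, a fold change more than 1.5 times as large.

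**Figure D1:**
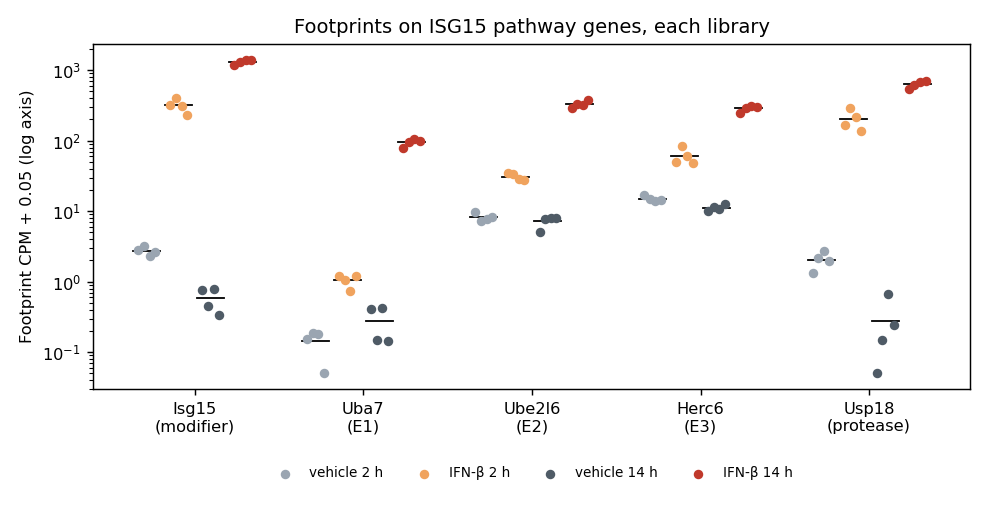
Footprint CPM of each member in each library (points) with the group mean (line), 4 libraries per group, on a log axis after adding 0.05 CPM so that 0 can be drawn. All IFN-β points lie above all vehicle points of the same gene and time, and Uba7 at 2 h with IFN-β stays near 1 CPM.

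**Figure D2:**
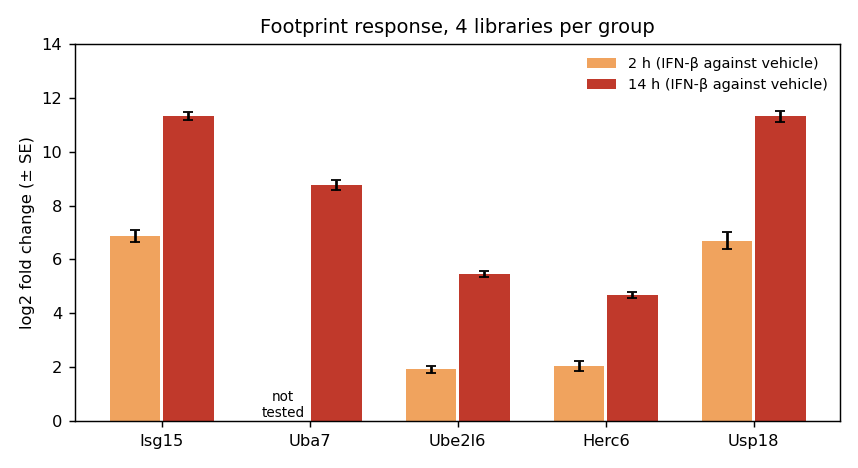
Log2 fold change of footprints, IFN-β against vehicle, from edgeR with its standard error as the error bar, at 2 h and 14 h, 4 libraries per group. Isg15 and Usp18 reach 6.87 and 6.69 at 2 h, against 1.92 for Ube2l6 and 2.03 for Herc6, and these 4 have larger values at 14 h (Uba7 was not tested at 2 h).

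A time-by-treatment term over the 16 footprint libraries tested whether the response differed between the exposures. The difference was positive for each of the 5 members, which means a larger fold change at 14 h than at 2 h, beside 15.4% of 12508 genes with a positive call (28.0% with the replicate block). Among the 4 members also tested at 2 h it was smallest for Herc6 (log2 2.66, SE 0.21, edgeR adjusted p = 2.85e-07). It was 3.56 for Ube2l6 (SE 0.19, adjusted p = 4.24e-09), 4.46 for Isg15 (SE 0.36, adjusted p = 3.33e-07) and 4.62 for Usp18 (SE 0.63, adjusted p = 5.48e-05), and that of Usp18 was 5.55 without vehicle replicate 3 of 14 h. Uba7 entered this fit only through its IFN-β libraries at 14 h, with 3, 26 and 7 counts in the other groups, so its fitted difference of 5.57 (SE 1.10) is given as a description. The times had separate libraries, and the labels do not say whether replicates 2 and 3 of both times share a source. Time and library set therefore cannot be told apart in the levels themselves.

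The levels behind these differences moved in unlike ways. In the treated libraries the mean CPM at 14 h was 4.18 times that at 2 h for Isg15, 3.13 times for Usp18, 4.72 times for Herc6, 10.6 times for Ube2l6 and 94.8 times for Uba7. In the vehicle libraries the ratio of 14 h to 2 h was 0.198 for Isg15 and 0.114 for Usp18, 0.748 for Herc6 and 0.882 for Ube2l6. The vehicle ratio of Uba7 rests on 7 and 3 counts, with a counting interval from 0.488 to 12.8 around 2.14. The modifier and the protease therefore combined a moderate gain with IFN-β and a lower vehicle level at 14 h, while the E2 moved in the treated libraries with a vehicle ratio near 1, and for the E1 the few vehicle counts leave that ratio open between the bounds given. These ratios of CPM between the times were not tested.

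Since the enzymes act on ISG15, their footprints were also expressed per 1000 Isg15 footprints of the same IFN-β library, which needs no library size. Uba7 had 3.53, 2.51, 2.27 and 5.00 per 1000 at 2 h and 66.9, 73.1, 76.6 and 70.2 at 14 h. Ube2l6 had 107, 82.2, 91.7 and 118 at 2 h and 242, 249, 227 and 266 at 14 h. Herc6 had 157, 204, 198 and 210 at 2 h and 206, 221, 224 and 215 at 14 h. Usp18 had 522, 710, 715 and 598 at 2 h and 460, 474, 485 and 505 at 14 h. Relative to the modifier, the E1 and the E2 were thus higher at 14 h in every library, the protease was lower in every library, and the ranges of Herc6 overlapped.

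The libraries of either exposure form a separate set, so time and library set cannot be told apart in the ratios either. An exact permutation test of the log2 ratios, 4 libraries against 4 and two-sided, gave p = 0.0286 for Uba7, Ube2l6 and Usp18, the smallest p this design allows, and p = 0.0571 for Herc6. Adjusted over the 4 enzymes by Benjamini-Hochberg these were 0.0381 and 0.0571 in the exact test. The mean log2 ratio differed between 14 h and 2 h by 4.50 for Uba7, 1.31 for Ube2l6, 0.18 for Herc6 and -0.39 for Usp18. The spread within a time was smaller at 14 h, with an SD of the log2 ratio of 0.05 to 0.09 over the 4 enzymes against 0.19 to 0.52 at 2 h.

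**Figure D3:**
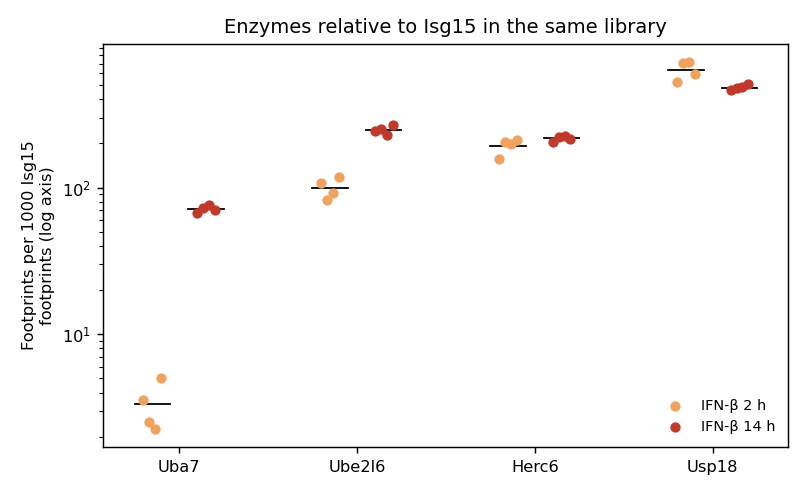
Footprints on each enzyme per 1000 footprints on Isg15 in the same IFN-β library (points, log axis) with the mean (line), 4 libraries per time. Uba7 rises from 2.27 to 5.00 at 2 h to between 66.9 and 76.6 at 14 h, Ube2l6 is also higher at 14 h, Usp18 is lower, and the Herc6 ranges overlap.

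Levels of different genes were compared only per length, as CPM per kilobase of CDS (mean ± SD). With vehicle at 2 h the order was Ube2l6 (14.8 ± 1.86), Isg15 (5.61 ± 0.826), Herc6 (4.90 ± 0.419), Usp18 (1.80 ± 0.511) and Uba7 (0.0317 ± 0.0217), and the ranges of Isg15 and Herc6 overlapped. With IFN-β at 2 h it was Isg15 (657 ± 149), Usp18 (185 ± 59.8), Ube2l6 (55.9 ± 6.56), Herc6 (20.1 ± 5.21) and Uba7 (0.337 ± 0.0715), with no overlap between neighbours. Vehicle libraries at 14 h had Ube2l6 first (13.0 ± 2.64), then Herc6 (3.68 ± 0.354), Isg15 (1.11 ± 0.474), Usp18 (0.206 ± 0.246) and Uba7 (0.0775 ± 0.0518), of which the last pair overlapped. After 14 h of IFN-β, Isg15 stood at 2750 ± 210, Ube2l6 at 591 ± 64.6 and Usp18 at 578 ± 64.6, these latter overlapping, then Herc6 at 94.8 ± 9.79 and Uba7 at 31.9 ± 3.86 (SD, n = 4 throughout). IFN-β thus moved Isg15 from behind Ube2l6 to the first place at both times, and Uba7 was the last in all 4 groups.

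The ubiquitin genes with the same roles moved far less. The fold change of ubiquitin's main E1, Uba1, was 0.08 on the log2 scale at 2 h (edgeR adjusted p = 0.792) and 0.42 at 14 h (SE 0.05, adjusted p = 3.19e-05). Ubb, which encodes ubiquitin itself, gave -0.05 at 2 h (edgeR adjusted p = 0.894) and 0.28 at 14 h (adjusted p = 0.0705). Reads of Ubb are hard to assign because ubiquitin repeats are nearly alike between genes. Ube2l3, the E2 closest to Ube2l6, gave -0.21 (adjusted p = 0.689) and -0.23 (adjusted p = 0.422) in edgeR. Among the relatives of Herc6, Herc3 gave 0.04 and 0.21 (adjusted p = 0.927 and 0.0603) and Herc4 gave -0.04 and 0.10 (adjusted p = 0.922 and 0.201). In CPM per kilobase after 14 h of IFN-β, Isg15 at 2750 stood beside Ubb at 1470, Uba7 at 31.9 beside Uba1 at 403, and Ube2l6 at 591 beside Ube2l3 at 12.0.

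Genes around the pathway were followed in a list of 18 further ligases, proteases, partners and targets of ISG15 or USP18. Of the 17 tested, 3 were higher and 2 lower with IFN-β at 2 h, and 8 were higher and 2 lower at 14 h. Over all genes tested, 5.25% were higher and 2.01% lower at 2 h, and 26.2% were higher and 26.3% lower at 14 h. With the replicate block the list had 5 higher and 2 lower at 2 h (15.9% and 13.4% of all genes) and 10 higher and 2 lower at 14 h (31.8% and 31.0%). The median log2 fold change of the list was 0.10 at 2 h and 0.23 at 14 h. Trim25, an E3 ligase of the RIG-I pathway that is itself modified by ISG15, rose by 3.77 (SE 0.23, edgeR adjusted p = 7.77e-06) and 5.33 (SE 0.12, adjusted p = 4.98e-13) on the log2 scale. Stat2, which brings USP18 to the interferon receptor and is a subunit of the interferon-activated factor ISGF3, rose by 4.03 (SE 0.17, adjusted p = 1.19e-06) and 4.63 (SE 0.08, adjusted p = 4.11e-14).

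The remaining calls of that list were smaller. At 14 h Sqstm1, the autophagy adaptor p62, rose by 1.27 (SE 0.10, edgeR adjusted p = 2.06e-07), and Skp2, the F-box subunit of a ubiquitin ligase of the cell cycle, fell by 1.47 (SE 0.10, adjusted p = 7.66e-08). At 2 h the other calls, named after their values were seen, were the deubiquitinases Usp2, which fell by 0.86 (SE 0.13, edgeR adjusted p = 0.00272), and Usp3, which fell by 0.34 (SE 0.08, adjusted p = 0.0302), and the deacetylase Hdac6, which rose by 0.38 (SE 0.09, adjusted p = 0.0309). Usp2 was instead higher at 14 h (0.56, SE 0.07, edgeR adjusted p = 1.23e-05), and its response differed between the times by 1.44 (SE 0.14, adjusted p = 1.84e-06). The calls of Usp3 and Hdac6 at 2 h each held in only 2 of 8 fits that left out a library. For Usp3 the call was lost without vehicle replicate 2, 3 or 6 and without IFN-β replicate 2, 5 or 6, and for Hdac6 without vehicle replicate 2, 5 or 6 and without IFN-β replicate 2, 3 or 6.

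A second list held 32 genes of the ubiquitin, SUMO, NEDD8 and other ubiquitin-like pathways, of which 31 were in the tables and 29 passed the filter. In edgeR none was called at 2 h, with 0 at an unadjusted p under 0.05 and 0 in DESeq2. At 14 h 7 were higher and 6 lower, beside 26.2% and 26.3% of all genes. The replicate block gave 9 higher and 9 lower there, beside 31.8% and 31.0% of all genes. Their median log2 fold change was 0.01 at 2 h and 0.02 at 14 h. Among its called E1 genes, named after their values were seen, were Uba1 (0.42), which rose, and Uba2 (-0.41), Uba6 (-0.36) and the SUMO E1 subunit Sae1 (-0.56), which fell, beside 8.76 for Uba7.

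**Figure D4:**
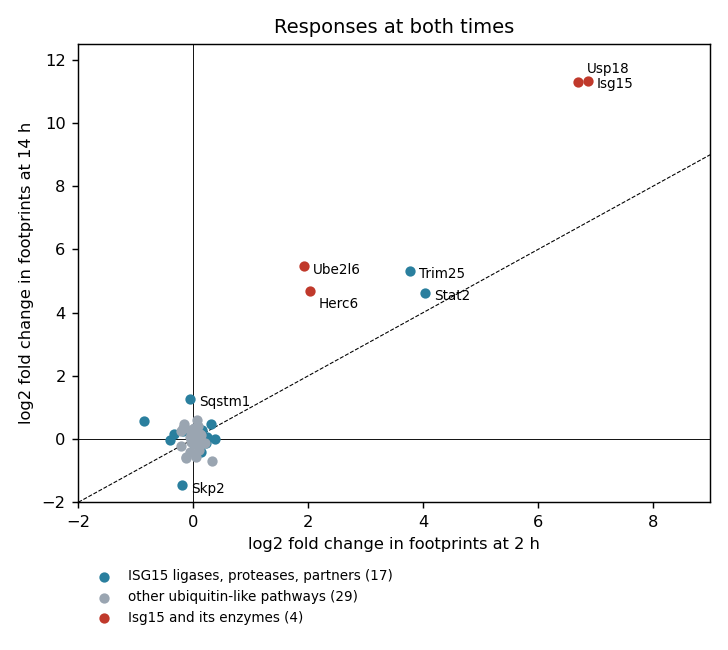
Log2 fold change of footprints (IFN-β against vehicle) at 2 h on the x axis and 14 h on the y axis, 1 point per gene, for the members tested at both times (4), the list of ISG15 ligases, proteases and partners (17) and the list of other ubiquitin-like pathways (29), with a dashed line where both values are equal. Members, Trim25 and Stat2 lie above the line and far from 0, and most other genes lie near 0.

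The genes whose pattern was most like each member were taken from 10309 genes averaging 50 counts or more, by Euclidean distance over the 16 footprint libraries of centred log2(CPM + 0.5). These libraries share treatments and depth, so the values are a description. Nearest to Isg15 were Iigp1 (distance 1.69), Rsad2 (1.81) and Ifit3b (2.08), and the same genes were nearest to Usp18 (Iigp1 1.32, Ifit3b 1.76, Rsad2 2.00). The modifier and the protease lay at 1.60 from each other, closer than any of these to Isg15. Nearest to Uba7 were Ly6a (1.64), Sp100 (1.77) and Ifi27l2a (1.87), none of which passed the filter on low counts at 2 h. Ube2l6 was nearest to H2-Q4 (1.35), Lgals3bp (1.39) and Parp12 (1.45), and Herc6 to Tap2 (1.04), H2-Q4 (1.11) and B2m (1.12), the light chain of MHC class I molecules. Ube2l6 and Herc6 lay at 1.91 from each other and at 10.1 and 10.6 from Isg15. Uba7 was closest among members to Ube2l6, at 4.08. By this measure the members formed the pairs Isg15 with Usp18 and Ube2l6 with Herc6, with Uba7 apart.

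Total RNA counts are given with a limit on what they measure. Sox2, an NSC marker with 646 to 3537 footprints per library, had 0 total RNA counts in every library, and Vim had 3 to 103 against 9251 to 52430 footprints. The strand setting of the counting was not given in the sources used here, so a low total RNA count of a member is not a measure of little mRNA, nor is an equal count a measure of unchanged mRNA. Isg15 had 6, 10, 10 and 2 counts with vehicle and 7, 22, 7 and 3 with IFN-β at 2 h, and 2, 5, 1 and 3 against 0, 0, 5 and 0 at 14 h, in libraries where its footprints with IFN-β reached 3541 to 13110. Its treatments overlapped at both times and the gene was below the filter. Usp18 had 28, 159, 15 and 53 counts with vehicle and 71, 92, 42 and 21 with IFN-β at 2 h, again overlapping, and 1 to 9 counts in each library at 14 h. Ube2l6 was the exception, with 3, 5, 7 and 1 counts with vehicle against 23, 27, 16 and 16 with IFN-β at 2 h, and 5, 0, 1 and 1 against 11, 9, 13 and 11 at 14 h, so that its treated libraries lay above the vehicle libraries at both times. Uba7 did not exceed 9 counts in any library. For Herc6 the vehicle libraries held 27 to 78 counts and the treated libraries 47 to 99 at 2 h, and at 14 h these were 7 to 25 and 12 to 35.

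In total RNA, edgeR called 0 of 3 members tested at 2 h, with 1 at an unadjusted p under 0.05 and 1 called in DESeq2, and 0 of 1 at 14 h, with 0 in both. Of all genes tested, 0.722% were called higher at 2 h and 3.47% at 14 h. Ube2l6 at 2 h had a log2 fold change of 2.10 (SE 0.52, edgeR adjusted p = 0.134), and the call was made with DESeq2 (2.09, adjusted p = 0.0180), with no filter on low counts (2.08, adjusted p = 0.0431) and with total counts alone (2.48, adjusted p = 0.0184). Herc6 gave 0.32 (SE 0.27, adjusted p = 0.988) at 2 h and 0.24 (SE 0.34, adjusted p = 0.759) at 14 h, and Usp18 gave -0.26 (SE 0.51, adjusted p = 0.999) at 2 h. The total RNA tables were thin for strongly translated genes in general. Of 1735 genes averaging 1000 or more footprints at 14 h, 48.9% had a mean under 10 total RNA counts, as had 11.8% of 1607 such genes at 2 h. A ratio of footprints to total RNA (translation efficiency) was therefore not computed for the members, and footprint changes here hold changes of mRNA and of translation together.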

How the data were processed

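The authors trimmed reads (Trim Galore 0.4.4), mapped them with Bowtie 0.12.7 to Ensembl transcripts of mm10 (GRCm38), dropped duplicate reads and ran SummarizeOverlaps in "Union" mode. The deposited values are raw counts, in the CDS for footprints and over whole genes for total RNA, checked to be whole numbers. Levels are CPM, counts per 1000000 of the scaled library size. Total RNA libraries held 1370008 to 7877753 counts.

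Groups follow the sample labels. Members and gene lists were chosen with earlier results of these data known. Genes with at least 10 counts in 4 libraries were tested with edgeR 4.0.16 in R 4.3.3 (TMM, quasi-likelihood, two-sided) and called at a Benjamini-Hochberg adjusted p under 0.05 over all genes tested. Scripts were tested on simulated counts. DESeq2 1.42.0 was an alternative, and scipy 1.17.1 gave exact tests. Genes were named by rule: all members, their 3 nearest genes, and listed genes called at 14 h beyond a log2 change of 1 or closest paralogs. Biological replicates were cultures of different mice. In footprints, same-numbered libraries deviated together (r = 0.33 to 0.81 at 2 h, 0.19 to 0.42 at 14 h), so the number pairs these libraries. The main fits have no replicate term, so the SE and adjusted p given for single genes do not use this pairing. The fit with the number as a block is an alternative. Rows without a GENCODE M21 identifier took 0.617% and 0.776% of footprint counts at 14 h and 2 h. Some genes of the lists are counted but not reported by name here.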

Additional observations from a re-analysis of the deposited data

Results flagged for a closer look

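The footprint response to IFN-β differed between 14 h and 2 h, by the interaction test in edgeR, for Isg15 (log2 4.46), Uba7 (5.57), Ube2l6 (3.56), Herc6 (2.66) and Usp18 (4.62), each larger at 14 h. Uba7 passed the filter on low counts in that fit only through its IFN-β libraries at 14 h, so its value is a description.

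Of 28 groups of 4 libraries checked for a library apart from the others, 1 was marked, where chance marks about 1 in 20. Vehicle replicate 1 at 14 h was the lowest for Ube2l6, at 5.02 CPM against 7.78 to 8.07 in the other libraries of its group, a gap of 0.921 of the group's range on the log2 scale. Without it the log2 fold change of Ube2l6 at 14 h was 5.36, against 5.46 with all libraries.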

How the results depend on the processing

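Footprint calls of the members kept their direction and their side of the threshold in all alternatives that gave a value: 56 values at 2 h, 70 at 14 h and 110 for the difference between times, among them every fit without a library (genes tested were those of the full set). Among these, the values of Isg15, Uba7 and Usp18 at 14 h and of Uba7 for the difference are descriptions. Those genes passed the filter there only through treated libraries. With the replicate block, Isg15 had log2 fold changes of 6.86 and 11.34 and no member's footprint call changed, but the number of genes called rose from 878 to 3538 at 2 h and from 3867 to 6944 for the difference between times. The enzyme ratios to Isg15 kept their direction without any library, from 4.34 to 4.72 for Uba7, 1.23 to 1.40 for Ube2l6 and -0.48 to -0.33 for Usp18, but 3 libraries against 4 cannot reach p under 0.05 in the exact test. The pathway lists had 5 calls at 2 h (7 with the block) and 3 to 4 without a library.

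Total RNA was less stable. At 2 h, 93 genes were called, against 169 in DESeq2, 174 with no filter, 44 with a mean of at least 50 counts, and 57 to 106 without a library; 1 member (Ube2l6) was called in DESeq2, with no filter and with total counts alone. At 14 h, 474 genes were called, against 269 with total counts alone (65.8% of them higher, against 55.1%), 247 with a mean of at least 50 counts, and 279 to 442 without a library; 1 member (Ube2l6) was called with no filter. Usp18 in total RNA at 2 h ranged from -0.56 to 0.57 over the fits without a library, turning positive without vehicle replicate 3. Total counts alone moved the median log2 fold change of all genes in total RNA at 2 h to 0.23. Total RNA came from the same lysates as the footprints, but same-numbered total RNA libraries did not all deviate together (r = -0.48 to 0.39). In total RNA the block gave 63 calls at 2 h and 519 at 14 h. The causes were not tested.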
